A study of Mus musculus with 2 samples.

Results

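The respiratory chain genes of the nucleus are 109 protein-coding genes in a table of 47719 mouse gene identifiers from cultured keratinocytes. They were chosen by symbol: every gene whose symbol starts with Nduf, with Sdha to Sdhd, with Uqcr, with Cox and a digit or with Atp5, together with Cyc1, Cycs and Atpif1. Of the 109 genes, 84 encode subunits of complexes I to V, 21 encode assembly factors, and 4 are neither (Cycs, Cox7a2l, Atp5s and Atpif1). RNA came from 1 culture of the genotype K5.Pp6fl/fl and 1 culture of the genotype Pp6fl/fl. Both were tail keratinocytes of C57BL/6J mice aged 8 weeks, grown for 3 days in Medium 154CF. Both carry floxed alleles of Pp6, the gene of the catalytic subunit of the serine/threonine phosphatase PP6, listed under the symbol Ppp6c. The K5.Pp6fl/fl sample is titled cKO in a series on Pp6 deletion. K5 usually stands for the promoter of keratin 5, a keratin of the basal layer; the labels do not spell it out, and they give no number of mice.

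The libraries held 17361271 estimated reads (K5.Pp6fl/fl) and 19374773 (Pp6fl/fl). Ppp6c stood at 40.7 CPM in K5.Pp6fl/fl cells, against 55.5 CPM in Pp6fl/fl cells, a fold of 0.733 (0.666 to 0.807), where CPM is the reads of a gene scaled to library size. By FPKM it stood at 16.8 in K5.Pp6fl/fl cells and 30.6 in Pp6fl/fl cells, a fold of 0.548, and the effective length that the deposited values imply was 1.34 times as long in the K5.Pp6fl/fl library. The authors' deposited table has -0.86 as its log2 fold, beside a log2 FPKM ratio of -0.87, and 5.71e-06 as its FDR. By reads and by FPKM the transcript was lower in the library labelled K5.Pp6fl/fl, and still present. The table has no values per exon, and reads outside the deleted part would count as well. The keratinocyte genes Krt14, Krt5 and Trp63 had 28562, 17102 and 773 CPM in K5.Pp6fl/fl cells and 30699, 17799.5 and 996 CPM in Pp6fl/fl cells. All 4 immune markers, among them Ptprc, had 0 reads in both libraries, and the summed levels of the fibroblast, endothelial and muscle markers were at most 1.32 CPM. With 1 library per genotype there is no spread between cultures and no test. Every interval below covers counting error alone (95%, exact conditional binomial).

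The respiratory chain sits in the inner mitochondrial membrane. Complex I takes electrons from NADH and complex II from succinate, ubiquinone carries them to complex III, cytochrome c carries them to complex IV, and complex IV passes them to oxygen. Complexes I, III and IV pump protons, and complex V, the ATP synthase, uses their return to make ATP. Complex II is encoded wholly in the nucleus, while the others combine nuclear subunits with subunits of the mitochondrial genome, and dedicated assembly factors help build them without being part of the finished enzyme. Basal keratinocytes are usually described as strongly glycolytic cells that also respire.

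Nearly all of these genes had close to equal transcript levels in the 2 genotypes. Of the 109, 102 were expressed, meaning at least 1 CPM in a library, and 98 of the 102 had a fold between 0.8 and 1.25, K5.Pp6fl/fl over Pp6fl/fl. The 4 outside that range were Ndufa4l2 and the assembly factor gene Sdhaf3, both higher, the complex I subunit gene Ndufc2, just past its upper end, and the assembly factor gene Ndufaf1, which was lower. The share of all expressed genes with a fold between 0.8 and 1.25 was not computed. The count of 98 alone therefore does not set these genes apart. The quartiles of the log2 ratio over all expressed genes, -0.13 and 0.12, also lay inside those limits. Taken as a sum, the 109 genes held 7740 CPM in K5.Pp6fl/fl cells and 7526 CPM in Pp6fl/fl cells, which is 0.775% and 0.752% of all reads and a fold of 1.03 (1.02 to 1.04). The sum leans on its most abundant genes, such as Atp5b with 1222 CPM in K5.Pp6fl/fl cells and 1142 CPM in Pp6fl/fl cells.

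For a call of 2-fold, the log2 ratio had to reach 1 in size after 0.5 CPM was added to both values, and the counting interval had to exclude a fold of 1. By that rule 1 of the 102 expressed genes, Ndufa4l2, was higher, where the share of all 12326 expressed genes was 0.811%, and 0 were lower, where the share of all expressed genes was 0.195%. The median log2 ratio of the 102 genes was 0.02, beside -0.01 for all expressed genes. Their middle 50% ran from -0.03 to 0.11, and that of all expressed genes from -0.13 to 0.12. The SD of the log2 ratio over genes was 0.163 here and 0.284 over all expressed genes. Among genes at 50 CPM or more, it was 0.087 over 47 respiratory chain genes and 0.177 over all 4538. Near that level, counting error is not small beside 0.087, and it was not subtracted. The counting interval of Ndufb8, at 60.6 CPM in K5.Pp6fl/fl cells and 52.3 CPM in Pp6fl/fl cells, had a log2 half-width of 0.126. That of the far more abundant Atp5b was 0.027.

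Counting intervals excluded a fold of 1 for a minority of the genes. They lay above 1 for 15 of 102 (14.7%), against 16.6% of all expressed genes, a similar share. They lay below 1 for 5 of 102 (4.90%), against 17.4% of all expressed genes. At 50 CPM or more, 0 of 47 genes were 2-fold higher, with 0.132% of all genes at that level, and 0 were 2-fold lower, with 0% of all. In that range 11 of 47 lay above 1 (23.4%), with 21.8% of all, and 3 of 47 lay below (6.38%), with 26.2% of all. The authors' deposited table gives an FDR under 0.05 to 5 expressed members of the set as higher, where it does so for 8.86% of all expressed genes, and to 1 as lower, where it does so for 5.50% of all. These FDR values also rest on 1 library per genotype.

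**Figure D1:**
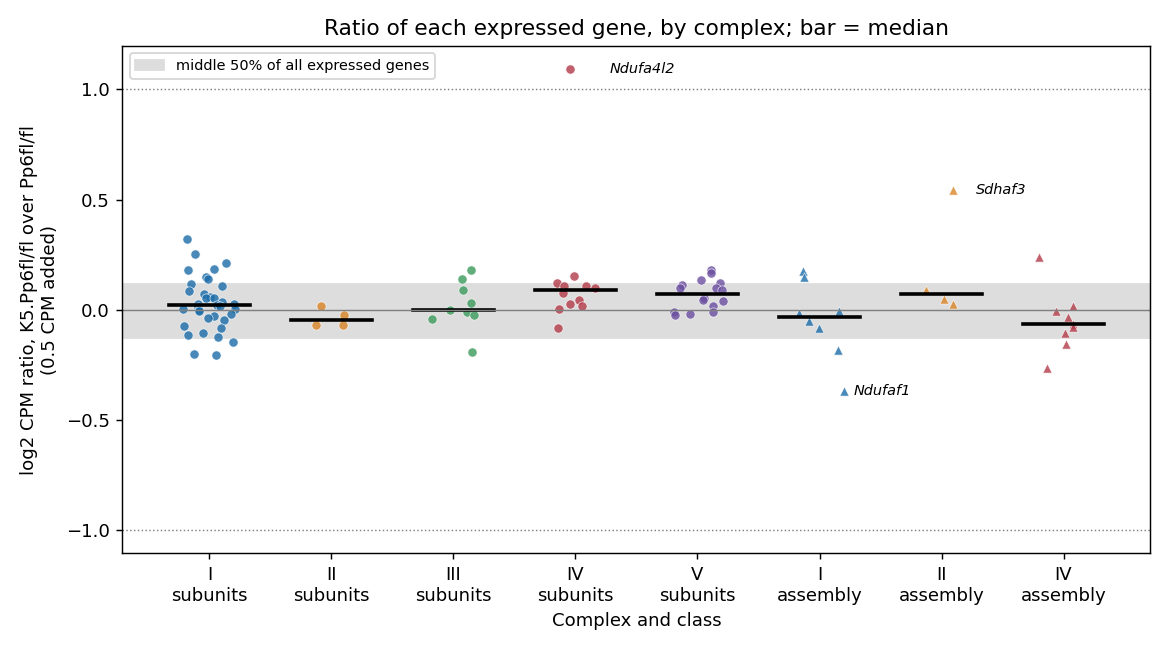
Each point is 1 expressed gene, placed by its log2 CPM ratio (K5.Pp6fl/fl over Pp6fl/fl, 0.5 CPM added) and grouped by complex into subunits (circles) and assembly factors (triangles); black bars are medians, the grey band is the middle 50% of all expressed genes (-0.13 to 0.12) and the dotted lines mark a 2-fold difference. Ndufa4l2 at 1.09 lies beyond the upper dotted line, and Sdhaf3 at 0.54 and Ndufaf1 at -0.37 stand away from the other assembly factors.

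The genes were also compared in the control region next to their start, since nuclear respiratory chain genes are known targets of the transcription factors NRF1, GABPA (a factor of the ETS family) and YY1. RefSeq promoter windows on GRCm38.p6, from 250 bases before to 50 after a start, were found for 85 of the 102 expressed genes, with 91 windows in all. The letters searched on both strands were, for NRF1, GCGC and again GCGC after any 2 bases, CCGGAAG for the ETS family and AAGATGGCG for YY1. Below are the windows of 6 genes, chosen once their values and matches were known: Sdha and Cox6a1 for their repeated NRF1 matches, and Sdhaf3, Ndufaf1, Ndufc2 and Ndufs7 because they have the highest and lowest log2 ratios, with 0.5 CPM added, among assembly factors and among complex I subunits (by the CPM fold alone, Ndufc1 at 0.865 lies just below Ndufs7 at 0.867). Capitals mark the matches.
Sdha (chr13:74350191-74350490, minus strand): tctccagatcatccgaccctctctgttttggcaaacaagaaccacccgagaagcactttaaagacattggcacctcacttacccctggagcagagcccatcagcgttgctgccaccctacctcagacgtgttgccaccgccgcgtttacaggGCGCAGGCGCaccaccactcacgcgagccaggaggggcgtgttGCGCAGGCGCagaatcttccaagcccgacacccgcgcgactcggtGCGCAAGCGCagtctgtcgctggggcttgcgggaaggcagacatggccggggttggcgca
Cox6a1 (chr5:115348909-115349208, minus strand): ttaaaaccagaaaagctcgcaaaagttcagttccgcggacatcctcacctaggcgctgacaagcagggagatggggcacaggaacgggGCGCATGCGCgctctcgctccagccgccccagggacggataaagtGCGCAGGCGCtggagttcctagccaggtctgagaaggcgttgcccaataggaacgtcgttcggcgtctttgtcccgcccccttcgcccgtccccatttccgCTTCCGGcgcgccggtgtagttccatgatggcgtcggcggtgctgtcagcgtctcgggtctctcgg
Sdhaf3 (chr6:6955768-6956067, plus strand): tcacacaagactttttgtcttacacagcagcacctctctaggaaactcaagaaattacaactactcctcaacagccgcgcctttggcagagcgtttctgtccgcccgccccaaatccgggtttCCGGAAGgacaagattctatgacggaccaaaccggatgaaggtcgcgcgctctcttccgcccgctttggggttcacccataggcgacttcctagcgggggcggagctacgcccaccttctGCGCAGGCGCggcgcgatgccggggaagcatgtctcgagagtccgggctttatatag
Ndufaf1 (chr2:119662785-119663084, minus strand): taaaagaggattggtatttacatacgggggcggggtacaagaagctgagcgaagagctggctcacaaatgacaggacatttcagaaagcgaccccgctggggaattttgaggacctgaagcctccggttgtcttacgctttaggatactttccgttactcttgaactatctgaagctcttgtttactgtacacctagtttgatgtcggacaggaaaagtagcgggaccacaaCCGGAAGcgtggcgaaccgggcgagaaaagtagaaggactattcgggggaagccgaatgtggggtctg
Ndufc2 (chr7:97399753-97400052, plus strand): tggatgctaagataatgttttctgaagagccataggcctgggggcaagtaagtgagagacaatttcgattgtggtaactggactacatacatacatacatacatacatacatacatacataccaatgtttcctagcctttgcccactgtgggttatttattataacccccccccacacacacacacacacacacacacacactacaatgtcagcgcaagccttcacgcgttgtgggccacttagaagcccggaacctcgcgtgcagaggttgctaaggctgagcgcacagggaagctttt
Ndufs7 (chr10:80249199-80249498, plus strand): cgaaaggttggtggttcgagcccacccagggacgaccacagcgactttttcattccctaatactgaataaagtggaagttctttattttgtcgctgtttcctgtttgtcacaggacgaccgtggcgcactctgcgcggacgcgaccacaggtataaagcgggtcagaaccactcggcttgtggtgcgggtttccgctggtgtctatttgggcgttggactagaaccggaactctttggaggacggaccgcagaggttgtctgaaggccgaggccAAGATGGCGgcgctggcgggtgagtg

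Sdha, the flavoprotein of complex II, held 3 NRF1 matches, and Cox6a1, a small subunit of complex IV, held 2 with 1 ETS match read on the opposite strand. Sdhaf3 held 1 NRF1 and 1 ETS match and Ndufaf1 1 ETS match. Ndufs7 held 1 YY1 match. The window of Ndufc2 held none of the 3 letter strings. None of the printed matches overlaps another.

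Over all windows, NRF1 letters stood in 27.5% of those of the respiratory chain genes, against 13.5% of the 11635 windows of expressed protein-coding genes and 6.23% of all 32851 windows in the table. ETS letters stood in 29.7% of the respiratory chain windows, against 18.3% and 8.86%. YY1 letters stood in 9.89%, against 3.14% and 1.40%; they were shortened after a longer form had been tried on these windows. Assembly factors had ETS letters in 11 of 19 windows (57.9%) and subunits in 16 of 68 (23.5%). The median GC content was 59.0% for the respiratory chain windows and 61.0% for those of expressed protein-coding genes. The folds hardly differed by these letters: 50 genes with at least 1 of the 3 strings had a median log2 ratio of 0.02 and 35 genes without had 0.05. Per length, the 24 genes with NRF1 letters had a median of 99.8 FPKM in K5.Pp6fl/fl cells and 105.5 FPKM in Pp6fl/fl cells, and the 61 without had 64.9 FPKM in both. For ETS letters the medians were 80.7 and 77.0 FPKM over 26 genes with them, and 76.5 and 74.2 over 59 without. The 9 genes with YY1 letters went the other way, at 53.5 and 64.9 FPKM, beside 79.6 and 77.7 for the 76 without. Such matches describe the sequence and are not shown binding sites.

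Complex I was the largest group, with 36 expressed subunit genes, and as a group it was nearly level. Its summed subunit level was 1580 CPM in K5.Pp6fl/fl cells and 1551 CPM in Pp6fl/fl cells, a fold of 1.02 (1.002 to 1.035). The log2 ratios ran from -0.20 to 0.32 with a median of 0.02, 22 above 0 and 14 below; of all expressed genes, 46.9% were above 0. Of the 36 counting intervals, 5 lay above 1 and 2 below, where the shares of all expressed genes were 16.6% and 17.4%. The 7 core subunits, which carry the flavin and iron-sulfur clusters and are shared with bacteria, had a median of 0.05, and the 29 supernumerary subunits, which were added around that core, had 0.02.

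Ndufc2, a small subunit of the membrane arm, had the highest ratio of complex I, with 659 reads in K5.Pp6fl/fl cells and 585 in Pp6fl/fl cells. That is 37.9 and 30.2 CPM, a fold of 1.25 (1.12 to 1.40). The authors' deposited table gives it 0.22 as log2 fold and 0.00498 as FDR. By FPKM the fold of Ndufc2 was smaller than by reads, at 1.16, which is the same 0.22 on the log2 scale. Ndufa5, a subunit of the arm that reaches into the matrix, had 247 and 229 reads in K5.Pp6fl/fl and Pp6fl/fl cells, a fold of 1.20 (0.999 to 1.44), with an interval that touches 1.

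Ndufb8, of the membrane arm, was at 60.6 CPM in K5.Pp6fl/fl cells and 52.3 CPM in Pp6fl/fl cells, a fold of 1.16 (1.06 to 1.27). The core subunits Ndufs3 and Ndufs1 were at folds of 1.14 (1.04 to 1.25) and 1.11 (1.04 to 1.18), and Ndufs4, an accessory subunit of the matrix arm, at 1.14 (1.02 to 1.26). These 3 and Ndufb8 lie outside the rule for naming genes and were named because their intervals lie above 1. At the low end stood Ndufs7, the core subunit that helps hold the iron-sulfur cluster next to the ubiquinone site. It had 927 reads in K5.Pp6fl/fl cells and 1191 in Pp6fl/fl cells, which is 53.3 and 61.5 CPM and a fold of 0.867 (0.794 to 0.945). Core subunits of 1 enzyme thus stood on both sides of 1.

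Ndufc1, a small membrane-arm subunit, had 178 reads in K5.Pp6fl/fl cells and 229 in Pp6fl/fl cells, a fold of 0.865 (0.707 to 1.06) that its depth cannot tell from 1. Ndufa10, named after its value was seen, had 97.9 and 105.5 CPM in K5.Pp6fl/fl and Pp6fl/fl cells, a fold of 0.928 (0.870 to 0.990). Among further core subunits, Ndufs8, Ndufv1 and Ndufv2 had folds of 1.08, 1.04 and 0.998, with intervals that included 1. By level per length, Ndufa7 was the highest subunit of complex I with 343 FPKM in K5.Pp6fl/fl cells and 345 FPKM in Pp6fl/fl cells, and Ndufa11 the lowest with 18.2 and 19.7 FPKM. That span was 18.8-fold in K5.Pp6fl/fl cells and 17.5-fold in Pp6fl/fl cells.

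**Figure D2:**
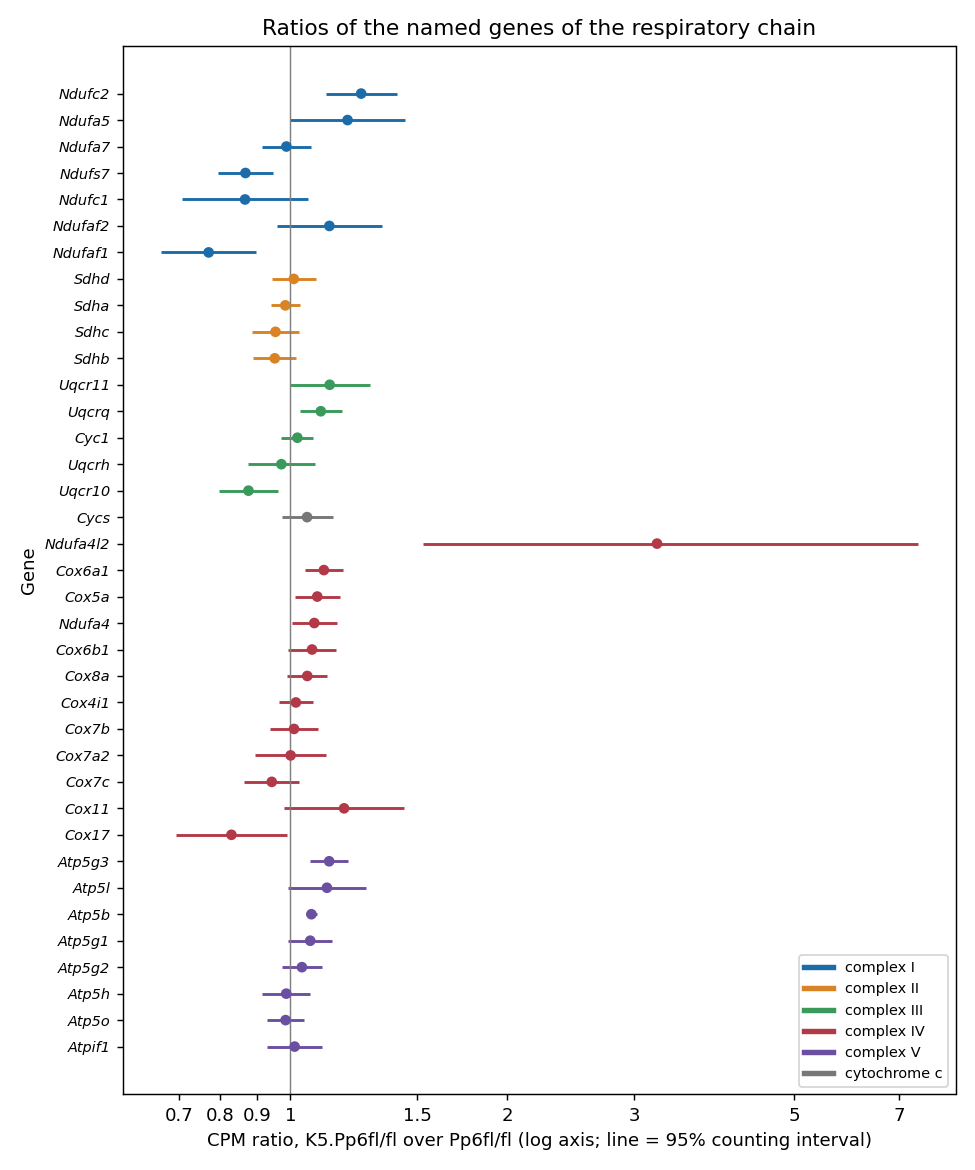
Points are CPM ratios (K5.Pp6fl/fl over Pp6fl/fl, log axis) of the expressed genes that the naming rule takes, coloured by complex, with lines for the 95% counting interval. All but Ndufa4l2 lie between 0.770 (Ndufaf1) and 1.25 (Ndufc2), and the interval of Ndufa4l2 runs from 1.53 to 7.43.

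Complex II, succinate dehydrogenase, has 4 subunits and belongs to the TCA cycle as well as to the chain. Their sum was 447 CPM in K5.Pp6fl/fl cells and 457 CPM in Pp6fl/fl cells, a fold of 0.977 (0.948 to 1.01). None of the 4 intervals excluded 1, where 16.6% of all expressed genes lay above 1 and 17.4% below. Sdhd, a membrane anchor, and Sdha, the flavoprotein that oxidises succinate, had folds of 1.01 (0.942 to 1.09) and 0.984 (0.940 to 1.03). Sdhc, the other anchor, and Sdhb, the iron-sulfur subunit, had folds of 0.954 (0.885 to 1.03) and 0.952 (0.888 to 1.02). The 4 subunits also had the most even levels of any complex. Sdhb was highest at 106 FPKM in K5.Pp6fl/fl cells and 111 FPKM in Pp6fl/fl cells, and the span from lowest to highest was 1.46-fold and 1.43-fold. Sdha stood on opposite sides of 1 by reads and by FPKM: its FPKM was 90.7 in K5.Pp6fl/fl cells and 83.3 in Pp6fl/fl cells, a fold of 1.09.

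Complex III, the cytochrome bc1 complex, was level as a sum, with 1009 CPM in K5.Pp6fl/fl cells and 1001 CPM in Pp6fl/fl cells, a fold of 1.01 (0.987 to 1.03). Its 9 genes had a median log2 ratio of -0.00073, which becomes 0.0011 with the size factors of DESeq2, so it has no direction. The catalytic subunits were close to 1: the Rieske iron-sulfur protein gene Uqcrfs1 was at 1.06 (0.988 to 1.14) and cytochrome c1, Cyc1, at 1.02 (0.972 to 1.08). The 2 core proteins Uqcrc1 and Uqcrc2 were at 0.983 (0.947 to 1.02) and 0.999 (0.955 to 1.05).

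The small subunits of complex III went both ways. Uqcrq, the highest of the complex per length with 411 FPKM in K5.Pp6fl/fl cells and 378 FPKM in Pp6fl/fl cells, had 99.6 and 90.3 CPM in K5.Pp6fl/fl and Pp6fl/fl cells, a fold of 1.10 (1.03 to 1.18). Uqcr11 had 490 and 481 reads in K5.Pp6fl/fl and Pp6fl/fl cells, a fold of 1.13 (0.998 to 1.29). Uqcr10 had 789 reads in K5.Pp6fl/fl cells and 1004 in Pp6fl/fl cells, a fold of 0.875 (0.796 to 0.961), the lowest of complex III, and the hinge protein gene Uqcrh was at 0.972 (0.873 to 1.08). Of the 9 intervals, that of Uqcrq lay above 1 and that of Uqcr10 below, where the shares of all expressed genes were 16.6% and 17.4%. Cytochrome c, Cycs, the mobile carrier that also triggers the apoptosome once released, was at 65.8 CPM in K5.Pp6fl/fl cells and 62.3 CPM in Pp6fl/fl cells, a fold of 1.06 (0.972 to 1.15).

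Complex IV, cytochrome c oxidase, had the largest summed fold of the 5 complexes, and it was still small. The sum of its subunits was 894 CPM in K5.Pp6fl/fl cells and 850 CPM in Pp6fl/fl cells, a fold of 1.052 (1.029 to 1.075). That of complex V was 1.046 (1.034 to 1.058), an interval inside the first, so counting error does not separate them. Of the 11 subunits that most tissues use, Ndufa4 counted among them since it is now placed in complex IV, 10 had a log2 ratio above 0, beside 46.9% of all expressed genes, and 3 had an interval above 1, beside 16.6% of all expressed genes and 21.8% of those at 50 CPM or more. The median was 0.08. Cox6a1 had 2154 reads in each library, which in the shallower K5.Pp6fl/fl library is 124 CPM against 111 CPM in Pp6fl/fl cells, a fold of 1.11 (1.05 to 1.18). Cox5a, on the matrix side, and Ndufa4 were at 1.09 (1.01 to 1.17) and 1.08 (1.004 to 1.16).

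Cox6b1, on the intermembrane side, and Cox8a were at 1.07 (0.993 to 1.16) and 1.06 (0.990 to 1.13), while Cox4i1, a regulatory subunit that binds ATP, was at 1.02 (0.965 to 1.07). Cox7b and Cox7a2 were at 1.01 (0.937 to 1.09) and 1.0009 (0.893 to 1.12). Cox7c was the only one of the 11 below 1, at 0.942 (0.863 to 1.03). Per length, Cox6a1 stood at 467 FPKM in K5.Pp6fl/fl cells and 420 FPKM in Pp6fl/fl cells, and Cox8a at 449.5 and 426 FPKM. Cox6a1 was the highest gene of complex IV in K5.Pp6fl/fl cells and Cox8a in Pp6fl/fl cells.

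The tissue isoforms of complex IV were nearly silent in both cultures. These are the subunits that muscle, lung or testis uses in place of the common ones. Cox6a2, Cox7a1, Cox8b, Cox7b2 and Cox8c had 0 reads in both libraries, and a count of 0 allows up to 0.173 CPM in K5.Pp6fl/fl cells and 0.155 CPM in Pp6fl/fl cells (3 reads each, counting error only). Cox4i2, the isoform of lung and low oxygen, had 0 reads in K5.Pp6fl/fl cells and 1 in Pp6fl/fl cells, and the testis form Cox6b2 had 4 and 1. These 7 genes make up all members that were not expressed. At this depth no difference between the genotypes was detectable for them.

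The exception was Ndufa4l2, a relative of Ndufa4 that is known as a target of the hypoxia-inducible factor HIF-1. It had 29 reads in K5.Pp6fl/fl cells and 10 in Pp6fl/fl cells, which is 1.67 and 0.517 CPM and a fold of 3.23 (1.53 to 7.43). The FPKM fold was 3.24, and in the authors' deposited table its log2 fold is 1.58 and its FDR 0.0087. It stayed far below Ndufa4: by FPKM it made up 0.821% of the pair in K5.Pp6fl/fl cells and 0.275% in Pp6fl/fl cells. With 2 CPM added, or as log2 of FPKM plus 1, where it was 0.99, Ndufa4l2 missed the 2-fold call, and it lies under a floor of 5 CPM. Its span in the reference annotation overlaps Shmt2, which had 391 and 358 CPM in K5.Pp6fl/fl and Pp6fl/fl cells, a fold of 1.09 (1.06 to 1.13), and the library kit does not mark strand.

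Melanocyte markers were also higher in the K5.Pp6fl/fl library, and their part in the Ndufa4l2 value was not tested. The sum of the 4 markers Dct, Tyrp1, Pmel and Mlana was 13.7 CPM in K5.Pp6fl/fl cells and 6.67 CPM in Pp6fl/fl cells, a fold of 2.06 (1.66 to 2.58), and none of the 4 was at 0. Endothelial markers summed to 1.32 CPM in K5.Pp6fl/fl cells and 0.620 CPM in Pp6fl/fl cells, with only Cdh5 at 0, in the Pp6fl/fl library. Fibroblast markers summed to 0.920 CPM in K5.Pp6fl/fl cells and 0.775 CPM in Pp6fl/fl cells, with Lum at 0 in both and Col1a2 and Col3a1 at 0 in K5.Pp6fl/fl cells. In RNA from a whole culture, more cells of a type and more RNA per cell cannot be told apart.

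Complex V, the ATP synthase, was the most abundant group, with 3316 CPM in K5.Pp6fl/fl cells and 3172 CPM in Pp6fl/fl cells, a fold of 1.05 (1.03 to 1.06). Of its 16 subunit genes 12 had a log2 ratio above 0, beside 46.9% of all expressed genes. Intervals lay above 1 for 4 of the 16 and below 1 for 0. The shares were 16.6% and 17.4% of all expressed genes, and 21.8% and 26.2% of those at 50 CPM or more. Some of the 16 lie under 50 CPM, such as Atp5k at 12.5 CPM in K5.Pp6fl/fl cells and 11.4 CPM in Pp6fl/fl cells. The count above 1 is not far from either share. The catalytic beta subunit gene Atp5b alone gave 1222 CPM in K5.Pp6fl/fl cells and 1142 CPM in Pp6fl/fl cells, a fold of 1.07 (1.05 to 1.09). Its partner in the catalytic head, the alpha subunit gene Atp5a1, stood at 898 CPM in K5.Pp6fl/fl cells and 873 CPM in Pp6fl/fl cells, a fold of 1.03 (1.01 to 1.05). The gamma subunit gene Atp5c1, which forms the turning shaft, was at 1.07 (1.01 to 1.13), and the delta subunit gene Atp5d at 0.992 (0.941 to 1.05).

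Atp5a1 and Atp5b proteins are present in equal copies in the enzyme. Atp5b stood at 2103 FPKM in K5.Pp6fl/fl cells and 1916 FPKM in Pp6fl/fl cells, the highest value of all 109 genes, and Atp5a1 at 429 FPKM in both. This gap is wider than that of their reads, 1222 against 898 CPM in K5.Pp6fl/fl cells, while their annotated transcripts have similar median lengths of 768 and 816 bases. It therefore rests on the effective lengths behind the deposited FPKM. The rotor ring of the synthase is made of c subunits, and 3 genes encode the same mature c subunit. Atp5g3 was at 124 CPM in K5.Pp6fl/fl cells and 109 CPM in Pp6fl/fl cells, a fold of 1.13 (1.07 to 1.20), and the authors' deposited table has 0.18 as its log2 fold and 0.0298 as its FDR. Atp5g1 and Atp5g2 were at 1.07 (0.993 to 1.14) and 1.04 (0.973 to 1.11). By FPKM the 3 genes had similar shares, with Atp5g3 at 37.8% in K5.Pp6fl/fl cells and 36.2% in Pp6fl/fl cells, Atp5g1 at 31.2% and 31.4%, and Atp5g2 at 31.0% and 32.4%.

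The peripheral stalk, which keeps the catalytic head from turning with the rotor, had folds close to 1. Its 4 genes ran from a log2 ratio of -0.02 to 0.02 with an SD of 0.017, and Atp5o, the oligomycin-sensitivity protein, and Atp5h were at 0.985 (0.928 to 1.05) and 0.987 (0.915 to 1.07). Atp5f1 was at 0.994 (0.945 to 1.05) and overlaps other genes in the reference annotation, as 49 of the 102 expressed genes do. The small membrane subunits Atp5l, Atp5k, Atp5mpl and Atp5j2 had log2 ratios from 0.05 to 0.17, with Atp5l at 29.7 CPM in K5.Pp6fl/fl cells and 26.5 CPM in Pp6fl/fl cells, a fold of 1.12 (0.993 to 1.27). Atpif1, the inhibitor that stops the synthase from running in reverse, stood at 55.8 CPM in K5.Pp6fl/fl cells and 55.0 CPM in Pp6fl/fl cells, a fold of 1.01 (0.929 to 1.11). Atp5s, coupling factor B, rested on 56 and 52 reads, and Cox7a2l, a factor that joins complexes III and IV into supercomplexes, was at 1.05 (0.956 to 1.16).

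**Figure D3:**
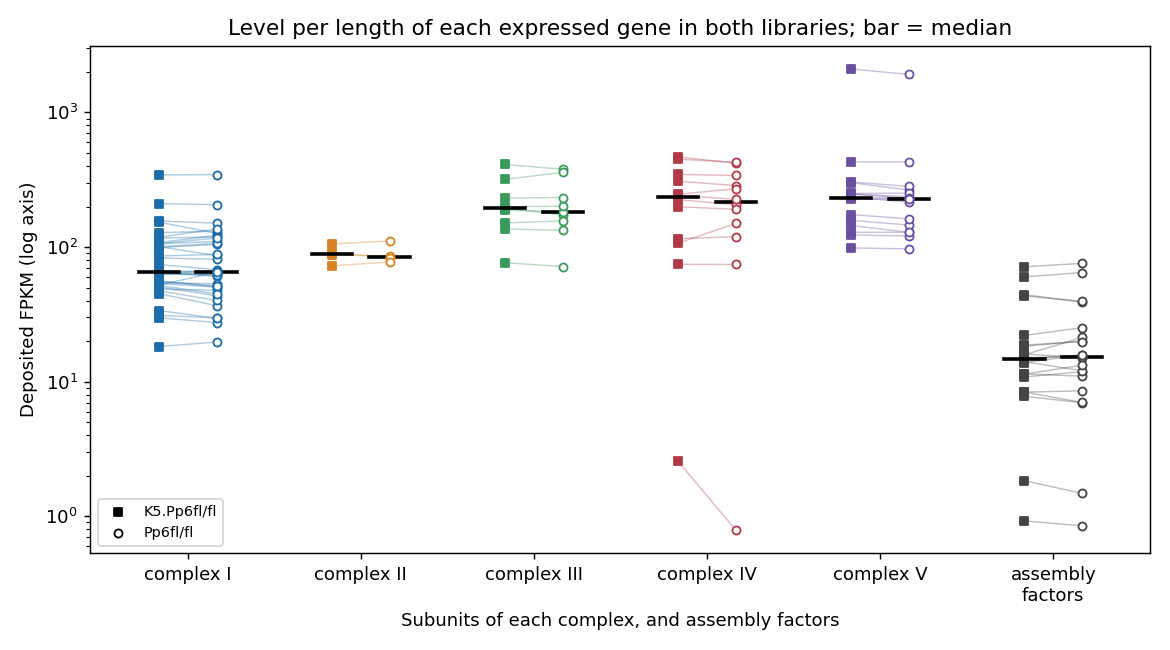
Deposited FPKM (log axis) of every expressed subunit gene by complex, and of the 21 assembly factors, in the K5.Pp6fl/fl library (squares, left of each pair) and the Pp6fl/fl library (open circles, right); lines join the same gene and bars are medians. Atp5b tops complex V at 2103 and 1916 FPKM, Ndufa4l2 lies lowest in complex IV at 2.55 and 0.789 FPKM, and assembly factors lie below most subunits in both libraries.

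Within each complex the order of levels was much the same in both genotypes. The Pearson r of log2 FPKM between the libraries was 0.988 over the 36 subunits of complex I, 0.904 over the 4 of complex II, 0.990 over the 9 of complex III, 0.992 over the 12 expressed of complex IV and 0.998 over the 16 of complex V. These r values describe genes that share their lengths and isoform models between libraries and are not independent replicates. They do not measure order. Sdha stood above Sdhd in K5.Pp6fl/fl cells, at 90.7 and 87.3 FPKM, and below it in Pp6fl/fl cells, at 83.3 and 86.1 FPKM. The r of complex IV includes Ndufa4l2, which lies far below the rest. Median levels per length ordered the other complexes alike: complex V had 233 FPKM in K5.Pp6fl/fl cells and 229 in Pp6fl/fl cells, complex IV 234 and 216, complex III 195 and 183, complex II 89.0 and 84.7, and complex I 65.4 and 65.3. Complex IV had the highest median in K5.Pp6fl/fl cells and complex V in Pp6fl/fl cells, and the levels of their genes overlap widely.

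Assembly factors were transcribed at lower levels than subunits and showed a slightly lower ratio. Their median level was 14.8 FPKM in K5.Pp6fl/fl cells and 15.3 FPKM in Pp6fl/fl cells, beside 116 and 121 FPKM for the 77 expressed subunit genes. The summed assembly factors were at 321 and 328 CPM in K5.Pp6fl/fl and Pp6fl/fl cells, a fold of 0.978 (0.943 to 1.01), and the summed subunits at 7246 and 7031 CPM, a fold of 1.03 (1.02 to 1.04). Much of the subunit sum and of its difference comes from Atp5b, at 1222 and 1142 CPM, and Atp5a1, at 898 and 873 CPM. Of the 21 assembly factors 8 had a log2 ratio above 0 and 13 below, and of the 77 subunits 50 were above and 27 below, where 46.9% of all expressed genes were above 0. The median of the subunits exceeded that of the assembly factors by 0.04 on the log2 scale. The counting interval of each single assembly factor reaches farther than that to both sides, and the gap was not tested. The SD of the log2 ratio was 0.188 over assembly factors and 0.157 over subunits, with single genes far out in both, Sdhaf3 at 0.54 and Ndufa4l2 at 1.09.

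Ndufaf1, a member of the assembly complex that builds the membrane arm of complex I, had the lowest ratio of all expressed genes of the set. It had 292 reads in K5.Pp6fl/fl cells and 422 in Pp6fl/fl cells, which is 16.8 and 21.8 CPM and a fold of 0.770 (0.661 to 0.896). Its log2 fold in the authors' deposited table is -0.43, at an FDR of 0.02. Ndufaf2, a chaperone of late complex I assembly related to the subunit Ndufa12, was at 1.13 (0.958 to 1.34). Of the 8 complex I assembly factors 2 had a log2 ratio above 0 and 6 below, with a median of -0.03, where 46.9% of all expressed genes were above 0. Only 1 of the 8 intervals lay below 1 and 0 above, where the shares of all expressed genes were 17.4% and 16.6%.

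Sdhaf3, which helps mature the iron-sulfur subunit of complex II, had the highest ratio among assembly factors. It had 119 reads in K5.Pp6fl/fl cells and 88 in Pp6fl/fl cells, which is 6.85 and 4.55 CPM and a fold of 1.51 (1.13 to 2.01). By FPKM the fold was 1.24, and the authors' deposited table has 0.30 on the log2 scale and an FDR of 0.0368. Sdhaf3 lies below the level of 10 CPM that the naming rule asks for and was named after its value was seen. The other 3 complex II factors, Sdhaf1, Sdhaf2 and Sdhaf4, had folds of 1.08, 1.04 and 1.02, with intervals that included 1.

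Among the 9 complex IV assembly factors 2 had a log2 ratio above 0 and 7 below, where 46.9% of all expressed genes were above 0. Only 1 of the 9 intervals lay below 1 and 0 above, where the shares of all expressed genes were 17.4% and 16.6%. Cox17, the copper chaperone of the intermembrane space, was the most abundant assembly factor per length, with 71.3 FPKM in K5.Pp6fl/fl cells and 75.7 FPKM in Pp6fl/fl cells. It had 224 and 301 reads in K5.Pp6fl/fl and Pp6fl/fl cells, a fold of 0.828 (0.694 to 0.988), and by FPKM the fold was 0.942. Cox11, which passes copper to a site in the catalytic subunit, had 224 and 210 reads, a fold of 1.19 (0.979 to 1.44). The haem A enzymes Cox10 and Cox15 were at 0.997 (0.893 to 1.11) and 0.956 (0.853 to 1.07). Cox20 had only 43 and 51 reads, while 1 identifier without a symbol, described in the table as a cytochrome c oxidase protein 20 homolog, had 349 and 377. Their sum had a fold of 1.02 (0.887 to 1.17).

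Reads and FPKM gave different answers for a few genes. The log2 ratios by the 2 measures were at least 0.25 apart for 4 of the 102 expressed genes, where the share of all expressed genes was 8.23%. Cox7b was the widest: 73.6 CPM in K5.Pp6fl/fl cells and 72.7 CPM in Pp6fl/fl cells, but 107 and 150 FPKM, a fold of 1.01 by reads and of 0.713 by FPKM. The effective length that the deposited values imply for Cox7b was 1.43 times as long in the K5.Pp6fl/fl library. The authors' deposited table lists -0.49 on the log2 scale for Cox7b, at an FDR of 0.912. Ndufab1, the mitochondrial acyl carrier protein, was at 1.05 (0.977 to 1.13) by reads and 0.883 by FPKM, Ndufaf3 at 0.997 by reads and 1.20 by FPKM, and Sdhaf3 is given above. The table has no values per transcript.

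**Figure D4:**
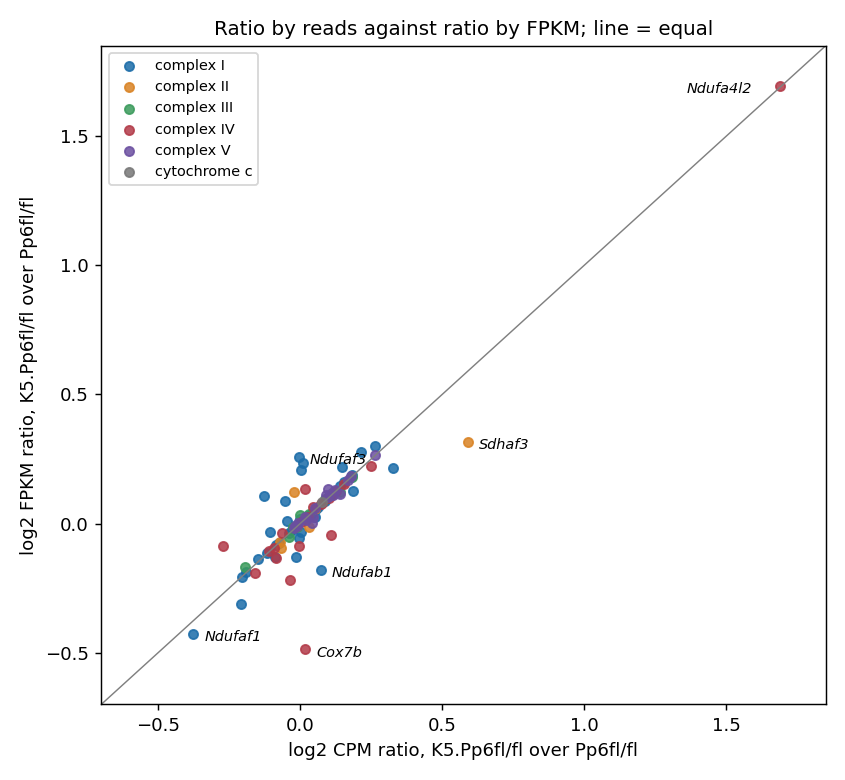
Each point is 1 expressed gene, coloured by complex, with its log2 CPM ratio on the x axis and its log2 FPKM ratio on the y axis (both K5.Pp6fl/fl over Pp6fl/fl, nothing added); the line marks equal ratios. Most points lie near the line, and Cox7b lies farthest below it, at 0.02 by reads and -0.49 by FPKM.

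By reads, genes of the pathway that the symbol rule does not reach gave a similar picture. All 33 listed assembly factors with other names were expressed, 0 were 2-fold apart by reads, 2 had an interval above 1 and 5 below, and the median log2 ratio was -0.03. Of all expressed genes, 0.811% were 2-fold higher and 0.195% 2-fold lower, and 16.6% had an interval above 1 and 17.4% below, so the count below 1 is near the share of all genes. Coa4, a factor of complex IV assembly, stood apart with 90 reads in K5.Pp6fl/fl cells and 169 in Pp6fl/fl cells, a fold of 0.593 (0.454 to 0.770), and by FPKM the fold was 0.698. Next lowest by reads was Pet100, another factor of complex IV, on 37 and 52 reads, a fold of 0.792 (0.505 to 1.23). The highest were Cmc2 at 1.24 (0.974 to 1.57) and Higd1a, a small protein that binds complex IV, at 1.19 (1.04 to 1.36). Reads and FPKM went opposite ways for several genes, among them Tmem70 and Lyrm7, both named after their values were seen. Tmem70, with an interval below 1, was at 0.897 (0.816 to 0.986) by reads and 1.17 by FPKM. Lyrm7 had 75 reads in K5.Pp6fl/fl cells and 72 in Pp6fl/fl cells, a fold of 1.16 (0.828 to 1.63). Its FPKM was 3.15 in K5.Pp6fl/fl cells and 8.86 in Pp6fl/fl cells, a fold of 0.356.

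By reads, regulators of these genes were mostly level, with 11 of 12 expressed and 0 of them 2-fold apart. Among all expressed genes, 0.811% were 2-fold higher and 0.195% 2-fold lower. Ppargc1a, the coactivator of mitochondrial growth in muscle and fat, had 0 reads in both libraries. Its relatives were present: Ppargc1b at 1.16 (0.863 to 1.57) and Pprc1 at 164 CPM in K5.Pp6fl/fl cells and 184 CPM in Pp6fl/fl cells, a fold of 0.889 (0.846 to 0.934). Esrra, a nuclear receptor that works with them, was at 1.16 (1.03 to 1.31). Polrmt, the RNA polymerase of the mitochondrial genome, was the lowest at 43.2 CPM in K5.Pp6fl/fl cells and 54.2 CPM in Pp6fl/fl cells, a fold of 0.798 (0.725 to 0.877). The factors whose letters were searched, Nrf1, Gabpa and Yy1, were at 1.05 (0.964 to 1.15), 0.996 (0.923 to 1.08) and 0.968 (0.910 to 1.03). By FPKM the fold of Nrf1 was 0.888. Tfam, named after its value was seen, was at 0.997 (0.888 to 1.12) by reads and 1.27 by FPKM.

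The 13 subunits encoded in the mitochondrial genome summed to 12660 CPM in K5.Pp6fl/fl cells and 12780.5 CPM in Pp6fl/fl cells, a fold of 0.991 (0.985 to 0.996). They ranged from mt-Nd2 at 1.42 (1.38 to 1.46) and mt-Co2 at 1.31 (1.28 to 1.34) to mt-Co1 at 0.931 (0.924 to 0.938) and mt-Cytb at 0.875 (0.854 to 0.896). Near-identical nuclear copies of mt-Co2, mt-Co1, mt-Co3 and mt-Atp6 also held reads. Gm28661, the copy of mt-Co2, had 15523 reads in K5.Pp6fl/fl cells and 13573 in Pp6fl/fl cells, and Gm29216, that of mt-Co1, 10170 and 11524. Gm28437, the copy of mt-Co3, had 10408 and 11313, and Gm10925, that of mt-Atp6, 7298 and 8359. How reads were shared between these genes and their copies was not tested, so their own values and the sum are uncertain. For the nuclear genes, the 12 processed pseudogenes that carry their symbols held 33 reads in K5.Pp6fl/fl cells and 30 in Pp6fl/fl cells, of which Ndufb4c had 31 and 25.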

How the data were processed

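The authors' deposited table holds, for each gene, an estimated count and FPKM of either library, a log2 fold, a p-value and an FDR. The submitters' processing notes name RSEM, edgeR and mm8, with no roles, and the aligner was not given in the sources used here. Per the labels' protocols, poly(A) RNA was pulled down and libraries were prepared with a TruSeq RNA kit, which does not mark strand. The counts deposited by the authors are estimated reads multiplied by 1 constant per library: divided by a step, 97.4% (K5.Pp6fl/fl) and 97.3% (Pp6fl/fl) of values under 100 reads were whole within 0.01 reads. The design had taken the counts as unscaled. Columns were divided by their step and rounded for intervals and scaling factors. The deposited FPKM divides by an effective length that can differ between libraries. The authors' log2 folds given here lie close to the log2 FPKM ratios. For Cox7b both are -0.49, where reads gave 0.02. These log2 folds are therefore not a measure separate from FPKM.

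Symbols came from GENCODE M21 (47219 of 47719 identifiers matched), and promoter windows from RefSeq on GRCm38.p6 through Entrez identifiers; since the named build differs, no coordinates of the table are used. CPM used TMM-scaled library sizes (edgeR 4.0.16, R 4.3.3; factors 1.0012046 for K5.Pp6fl/fl and 0.99879689 for Pp6fl/fl). Intervals are exact conditional binomial (Clopper-Pearson, scipy 1.17.1); reads are not independent molecules, so intervals and floors cover counting error only. Log2 ratios had 0.5 CPM added. The calculation was tested on simulated data. With 1 library per genotype there is no test.

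The members and lists were chosen with earlier results of these data known. Named genes are Ppp6c, genes 2-fold apart, the most abundant by FPKM and the 2 highest and 2 lowest ratios at 10 CPM or more in each complex and among assembly factors, the isoform groups, Cycs, Cyc1 and Atpif1, and the 2 highest and 2 lowest of each further list; other genes were named for their role or after their values were seen. Alternatives were the pseudocount, the scaling (DESeq2 1.42.0 size factors, or total reads), FPKM, the floor, a length and GC trend (statsmodels 0.14.6), the mean, a 99% interval, isoform shares by CPM, and leaving out overlapping genes.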

Additional observations from a re-analysis of the deposited data

How the results depend on the processing

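No paired analysis was possible because there is 1 library per genotype. The count of genes at least 2-fold higher, 1 in the report, was 0 with a pseudocount of 2 CPM, 0 with FPKM in place of counts and 0 with a floor of 5 CPM; in each case it is the low Ndufa4l2 that no longer passes. The count with an interval below 1, 5 in the report, was 3 with a 99% interval. By CPM in place of FPKM, the share of Ndufa4l2 in its pair was 1.93% in K5.Pp6fl/fl cells, that of Atp5g2 among the c subunit genes 33.1% in K5.Pp6fl/fl cells and 34.4% in Pp6fl/fl cells, and that of Atp5g3 39.2% in K5.Pp6fl/fl cells, since CPM does not divide by length. The other 130 values of group results under the alternatives moved by less than the counting error or by at most 1.5 times. The median log2 ratio of the set stayed between 0.018 and 0.040, and the gap between subunits and assembly factors between 0.040 and 0.096. The median of complex III ran from -0.011 to 0.060 and so changed sign. Of 222 values of single named genes under alternatives, 218 kept their sign; the others were Cox7b by FPKM (-0.48) and with the length and GC trend subtracted (-0.07), Cox7a2 with that trend subtracted (-0.07), and Sdha by FPKM (0.12). The scalings moved the median of all genes by under 0.1 on the log2 scale. Depth limits the genes under about 10 CPM most.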
